A study of Mus musculus with 24 samples.

Results

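The Kit+ CD45- cells are the CD31+ fraction of this series that carries the receptor Kit and lacks the pan-leukocyte protein CD45. They were chosen by the sample titles and make up 8 of the 24 libraries, 4 under an antibody against the Notch ligand Dll4 (anti-Dll4) and 4 under anti-human IgG as control (IgG). All 8 came from C57BL/6J mouse embryos at E10.5, in midgestation. In both groups the antibody was injected into the heart, and a culture of 5 h at 37 °C with 5% CO2 followed, in a myeloid long-term culture medium with 5 µg/ml of antibody. Both groups therefore also had 10 ng/ml IL-3 and 10 µM hydrocortisone. The other 16 libraries are Kit- CD41+ CD45- and Kit+ CD45+ cells under the same antibodies, 8 libraries each, and serve here only for comparison. The labels give neither the number of embryos behind a library nor whether replicates were separate litters or days. The p-values therefore cover only the spread of these libraries, which may be partly technical.

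Dll4 is a transmembrane ligand on arterial endothelium that activates Notch receptors on neighbouring cells. Cleaved Notch moves to the nucleus and, with the DNA-binding protein RBPJ, turns on targets such as the repressor Hes1. In the midgestation embryo Notch signalling is known for its roles in arterial identity and in the emergence of blood cells from hemogenic endothelium. That emergence involves a change of cell shape, for which the actin cytoskeleton is the main machinery: actin monomers are nucleated into filaments, severed and capped, bundled, and pulled on by myosin.

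Each library held between 8718351 and 10642459 counts and detected between 18063 and 20474 genes. Levels are CPM, that is counts relative to the library total after scaling by the trimmed mean of M-values (TMM), and values are listed in the order of replicates 1 to 4. Kit stood at 44.8, 35.7, 34.4 and 36.5 CPM under IgG and at 35.7, 29.2, 48.7 and 21.0 CPM under anti-Dll4, so the marker of the gate was present in every library and the groups overlapped. Pecam1, which encodes CD31, stood at 253, 102, 125 and 141 CPM under IgG and 74.6, 101, 120 and 47.0 CPM under anti-Dll4, and the endothelial cadherin gene Cdh5 at 46.9, 27.1, 25.1 and 25.2 against 22.5, 13.6, 13.3 and 15.5 CPM. Ptprc, which encodes CD45, reached at most 1.51 CPM in any of the 8 libraries.

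Hemoglobin transcripts took 16.9%, 33.7%, 29.8% and 27.4% of the counts under IgG and 34.0%, 36.2%, 22.1% and 49.3% under anti-Dll4. The means were 26.9% ± 7.21 and 35.4% ± 11.2 (SD, n = 4), a difference of 8.47 percentage points that the spread between libraries covers (2-sided exact permutation test over 70 arrangements, p = 0.257; adjusted over 6 library measures, 0.471; the smallest p the design allows is 0.0286). IgG replicate 1 had the lowest share of hemoglobin and, for the 28 endothelial marker genes, the highest summed level, 4300 CPM, against 1956 to 2415 CPM in the other IgG libraries and 1043 to 2028 CPM under anti-Dll4. It also had the lowest summed level of the 23 platelet genes, 1247 CPM, against 3701 to 5387 CPM in the other IgG libraries and 1266 to 2412 CPM under anti-Dll4. Without it the mean IgG hemoglobin share was 30.3% ± 3.2 (SD, n = 3; exact permutation p = 0.514 over 35 arrangements). The macrophage list (19 genes, with Ctss and Adgre1 at 0 in all 8 libraries) summed to 72.5 to 137 CPM under IgG and 46.1 to 97.5 CPM under anti-Dll4. The mesenchyme list (18 genes) summed to 160 to 286 CPM under IgG and 112 to 749 CPM under anti-Dll4, where the highest value, in replicate 4, included 299 CPM of the stromal proteoglycan gene Lum. The list of epithelial, liver and neural genes summed to 63.0 to 181 CPM and 54.4 to 138 CPM. Anti-Dll4 replicate 1 differed from the other 7 libraries in carrying Y-linked transcripts (523 counts of Ddx3y, against 0 in the other 7). It had 5 counts of Xist, a transcript of female cells, against 1961 to 2621 in the other 7. By these transcripts its cells were male and those of the other 7 female, so it came from other embryos than they did. The part of sex in the values was not tested beyond the fit without this library. In bulk libraries, fewer cells of a type and less RNA per cell cannot be told apart.

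**Figure D1:**
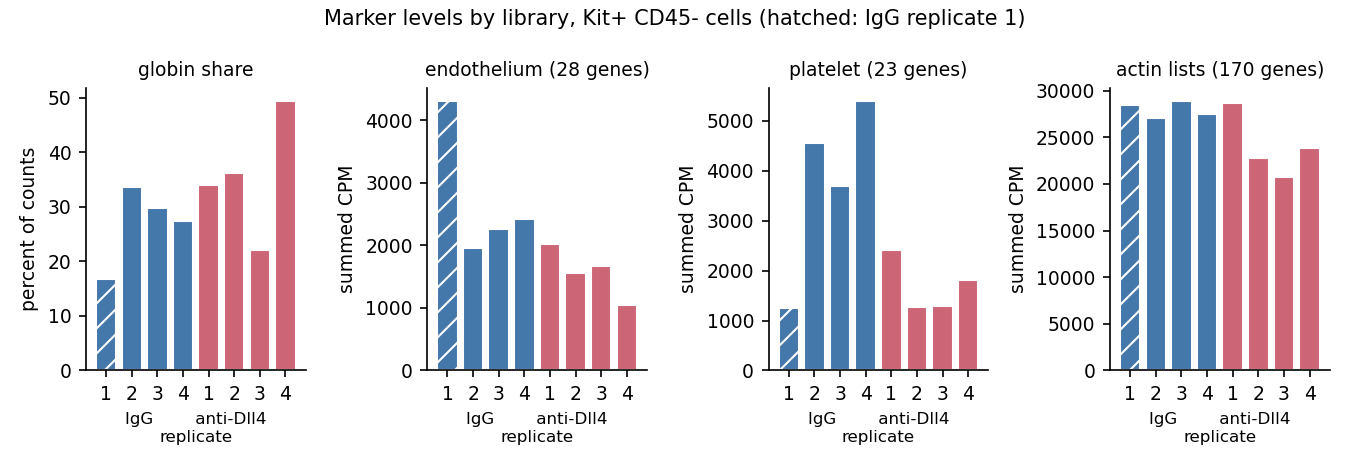
Share of hemoglobin transcripts in percent of counts and summed CPM of the endothelial, platelet and actin lists, by replicate, in the 4 IgG libraries (blue) and the 4 anti-Dll4 libraries (red). IgG replicate 1 (hatched) has the lowest hemoglobin share, 16.9%, the highest endothelial sum, 4300 CPM, and the lowest platelet sum, 1247 CPM.

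No gene differed between anti-Dll4 and IgG at an adjusted p below 0.05 in the edgeR quasi-likelihood fit over all 24 libraries. It tested 15618 genes, so 0.0% were called. At an unadjusted p below 0.05, 1198 genes were lower (7.67%) and 535 higher (3.43%). The libraries of the 2 groups did not overlap in 349 genes that were lower (2.23%) and 143 that were higher (0.916%). DESeq2 on the same counts called 76 genes lower (0.726% of the 10467 it gave an adjusted p) and 3 higher (0.0287%), Sepsecs, Rgcc and Gm45890. The median log2 fold change of all tested genes was -0.03.

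Leaving out IgG replicate 1, edgeR called 8 genes, all lower under anti-Dll4 (0.0496% of 16119 tested): Gsn, Gp6, Lcp2, Capn3, Dhrs3, Smim3, Smim14 and 4931440F15Rik. Leaving out anti-Dll4 replicate 1 gave 23 and leaving out IgG replicate 2 gave 12, all lower, while each of the other single libraries left out gave 0. Gsn and 4931440F15Rik were called in all 3 of these fits and by DESeq2. Without IgG replicate 1, 576 genes were lower (3.69%) and 245 higher (1.57%) without overlap, counts that are not comparable with those over all 8 libraries because fewer libraries have to stand apart.

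The 12 lower genes with the smallest p, chosen among genes at 5 CPM or more with predicted models left out, were Gsn, Trove2, Cnn2, Bin1, Actn1, Gp6, Clec1b, Lcp2, Slc25a20, Ica1, Tpm4 and Pdlim7. Their adjusted p in the edgeR fit ran from 0.0562 to 0.148. Gsn, Cnn2, Actn1, Tpm4 and Pdlim7 encode proteins that bind actin filaments. Gp6, the platelet collagen receptor, Clec1b, the receptor for podoplanin on platelets, and Lcp2, an adaptor downstream of such receptors, belong to platelet activation. Trove2 encodes the Ro60 RNA-binding protein, Bin1 a protein that bends membranes and Slc25a20 the mitochondrial carrier of acylcarnitines.

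Gelsolin, encoded by Gsn (chr2:35256380-35307892, plus strand, mm10), is a calcium-activated protein that severs and caps actin filaments. It stood at 15.6, 22.7, 18.9 and 31.0 CPM under IgG and at 4.92, 6.42, 2.70 and 0.875 CPM under anti-Dll4. Every anti-Dll4 library lay below every IgG library, with the lowest IgG value in replicate 1. In the edgeR fit the level was 5.66-fold lower (log2 fold change -2.50, SE 0.43, edgeR adjusted p = 0.0562). Without IgG replicate 1 the log2 fold change was -2.64 (edgeR adjusted p = 0.0145), and DESeq2 gave an adjusted p of 8.94e-07 over all libraries; over all alternatives the adjusted p ran up to 0.808. With the hemoglobin share of each library as a covariate the log2 fold change of Gsn was -2.55 (edgeR adjusted p = 0.31). In Kit- CD41+ CD45- cells Gsn averaged 132 CPM under IgG and 108 CPM under anti-Dll4, and in Kit+ CD45+ cells 97.6 and 85.6 CPM. The test of the difference between the effect in Kit+ CD45- cells and the mean of the other 2 gave -2.26 (SE 0.49, edgeR adjusted p = 0.212), which does not pass.

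The RefSeq promoter windows in GRCm38.p6 show what lies just upstream of the 3 actin genes with the smallest p, Gsn, Cnn2 and Actn1. They were searched on both strands for the RBPJ word GTGGGAA (reverse complement TTCCCAC) and for the CArG box, the site of serum response factor at many muscle and cytoskeletal genes. Each is given 5′ to 3′ on the gene's strand, 250 bases before the start, with matches in capitals: Gsn at chr2:35256109-35256358 (plus strand, the first of 3 windows listed), Cnn2 at chr10:79988350-79988599 (plus strand) and Actn1 at chr12:80260364-80260613 (minus strand).
Gsn: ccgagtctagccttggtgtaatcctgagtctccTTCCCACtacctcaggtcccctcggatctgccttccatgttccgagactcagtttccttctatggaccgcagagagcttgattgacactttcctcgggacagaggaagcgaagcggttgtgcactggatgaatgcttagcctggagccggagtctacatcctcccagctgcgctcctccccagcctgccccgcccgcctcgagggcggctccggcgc
Cnn2: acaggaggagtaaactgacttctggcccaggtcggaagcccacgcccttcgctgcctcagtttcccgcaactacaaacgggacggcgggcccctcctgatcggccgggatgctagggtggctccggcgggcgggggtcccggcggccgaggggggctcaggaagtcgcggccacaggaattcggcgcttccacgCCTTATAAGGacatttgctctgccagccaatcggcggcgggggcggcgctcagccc
Actn1: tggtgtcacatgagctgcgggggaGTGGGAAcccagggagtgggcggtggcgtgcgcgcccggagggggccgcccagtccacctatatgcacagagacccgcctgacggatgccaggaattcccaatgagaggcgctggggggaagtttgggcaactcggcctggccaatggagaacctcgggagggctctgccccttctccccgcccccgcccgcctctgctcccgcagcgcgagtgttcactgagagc
The RBPJ word occurs in 1461 of 27025 RefSeq promoters of this length (5.41%) and in 6 of the 144 promoters matched to the actin lists (4.17%). The CArG box occurs in 378 of all promoters (1.4%) and in 9 of those 144 (6.25%). A match is a description of these letters and not a bound site.

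Like all lists here, the 6 lists of actin genes were chosen with earlier results of these data known, so their shares are only descriptive. They held 171 names, of which 170 were in the count table and 166 passed the filter on low counts. Of these 166, 135 had a lower and 31 a higher fitted fold change under anti-Dll4. None passed the adjusted threshold in edgeR, 43 were lower (25.9%, against 7.67% of all tested genes) and 2 higher (1.2%, against 3.43%) at an unadjusted p below 0.05. DESeq2 called 8, all lower, where it called 0.726% of all genes lower: Gsn, Cnn2, Actn1, Tagln2, Cald1, Tpm2, Tpm4 and Arhgap18. The median log2 fold change was -0.30, against -0.03 over all tested genes. It was -0.20 without IgG replicate 1, -0.15 with the hemoglobin share as covariate and between -0.34 and -0.15 over all alternatives. Groups did not overlap in 13 of the 166, all lower, where 2.23% of all tested genes were lower without overlap, and in 20 without IgG replicate 1, where the background was 3.69%. In the other 2 populations the same 166 genes had medians of -0.06 (Kit- CD41+ CD45-) and -0.02 (Kit+ CD45+), a difference between populations that was tested only gene by gene. Summed over the 170 genes, the IgG libraries held 27113 to 28847 CPM and the anti-Dll4 libraries 20722 to 28696 CPM, with replicate 1 at the top.

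**Figure D2:**
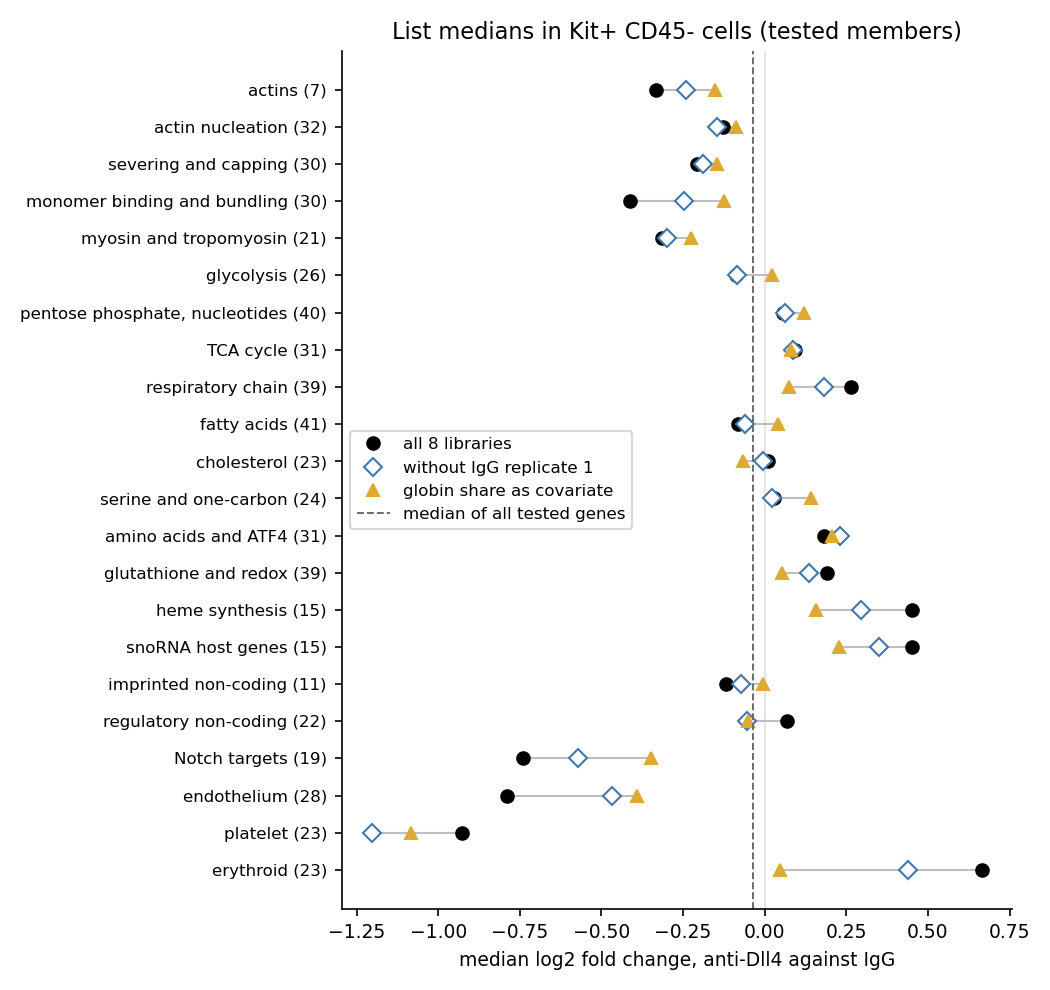
Median log2 fold change (anti-Dll4 against IgG) of the tested members of each list, whose number stands in parentheses, in all 8 libraries (circles), without IgG replicate 1 (diamonds) and with the hemoglobin share as covariate (triangles). The 5 actin lists shown lie left of the median of all tested genes (dashed, -0.03) in all 3 fits, while the erythroid median moves from 0.66 to 0.05 with the covariate.

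In the list of actins, which also holds the actin-related genes Actr1a and Actr1b, 7 of 7 had a lower mean, with a median of -0.33. Without IgG replicate 1, 5 were lower and 2 higher, with a median of -0.24. Acta2 had a log2 fold change of -0.05 (SE 0.69). Actb, the cytoplasmic beta-actin gene, stood at 2871, 2341, 2626 and 2518 CPM under IgG and 2326, 2114, 1878 and 1904 CPM under anti-Dll4. The groups touch without overlapping, and the difference was small (log2 fold change -0.33, SE 0.10, edgeR adjusted p = 0.246). Actc1, the cardiac actin gene, ran from 6.29 to 217 CPM under IgG and from 5.50 to 23.1 CPM under anti-Dll4, with the top values in IgG replicates 2 and 3 and the groups overlapping. Actins have many near-identical pseudogene copies, so their counts are uncertain.

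Nucleation factors start new filaments and branches. Of 32 tested, 20 were lower and 12 higher, with a median of -0.13. Abi1, a subunit of the WAVE complex that activates Arp2/3, stood at 71.1, 42.4, 50.8 and 55.9 CPM under IgG and 40.2, 34.9, 35.7 and 38.0 CPM under anti-Dll4, without overlap (log2 fold change -0.57, SE 0.15, edgeR adjusted p = 0.186). Cyfip1, another WAVE subunit, ranged from 58.3 to 89.9 CPM under IgG and from 34.5 to 64.3 CPM under anti-Dll4. The Arp2/3 genes Actr3 and Arpc2 had log2 fold changes of -0.48 (SE 0.16) and -0.26 (SE 0.12), with overlapping groups.

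Severing and capping proteins shorten filaments or block their ends. Of 30 tested, 23 were lower and 7 higher (median -0.21). In 3 (10%) the groups did not overlap, all lower, where 2.23% of all tested genes were lower without overlap: Gsn, Cap1 and Capzb. Cap1, which helps cofilin to take filaments apart, stood at 26.2, 12.6, 14.1 and 19.6 CPM under IgG and at 9.97, 7.18, 10.0 and 6.78 CPM under anti-Dll4 (log2 fold change -1.09, SE 0.36, edgeR adjusted p = 0.307). For Capzb, the beta subunit of capping protein, the groups stood apart by a narrow margin, with 459 to 492 CPM under IgG and 358 to 452 CPM under anti-Dll4. Dstn, the destrin gene, was lower on average (log2 fold change -0.48, SE 0.14), with 350 to 384 CPM under IgG and 203 to 357 CPM under anti-Dll4. The related cofilin gene Cfl1 spanned 2393 to 2829 CPM under IgG and 1843 to 3161 CPM under anti-Dll4. Its log2 fold change of -0.02 (SE 0.15) changed sign with upper-quartile scaling (0.03).

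Of the monomer-binding and bundling proteins, 28 of 30 were lower, with a median of -0.41, or -0.25 without IgG replicate 1 and -0.13 with the hemoglobin share as covariate. Cnn2 (chr10:79988584-79996062, plus strand), which encodes the actin-binding calponin 2, stood at 342, 258, 268 and 295 CPM under IgG and 189, 206, 154 and 118 CPM under anti-Dll4. The lowest IgG library exceeded the highest anti-Dll4 library, and the log2 fold change was -0.80 (SE 0.15, edgeR adjusted p = 0.0911, DESeq2 adjusted p = 0.00154). Actn1 (chr12:80167547-80260371, minus strand), whose product alpha-actinin cross-links filaments, stood at 22.7, 18.6, 25.7 and 25.2 CPM under IgG and 16.8, 13.6, 14.99 and 13.3 CPM under anti-Dll4. These groups were also apart (log2 fold change -0.65, SE 0.13, edgeR adjusted p = 0.12). Tagln2, the transgelin 2 gene, was even across IgG at 719, 763, 770 and 746 CPM and lay at 711, 477, 546 and 501 CPM under anti-Dll4, where replicate 1 nearly met the IgG range. Cald1, the caldesmon gene, stood at 88.0, 65.9, 81.5 and 83.8 CPM under IgG and 49.5, 57.1, 47.0 and 46.6 CPM under anti-Dll4, with no overlap (log2 fold change -0.67, SE 0.17, DESeq2 adjusted p = 0.0391). Tmsb4x, whose product thymosin beta 4 sequesters actin monomers, spanned 3286 to 4718 CPM under IgG and 2058 to 4892 CPM under anti-Dll4 and overlapped.

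In the list of myosin and tropomyosin genes, 19 of 21 tested were lower, with a median of -0.31 that was -0.30 without IgG replicate 1. Tpm4 (chr8:72134975-72153142, plus strand), a non-muscle tropomyosin that coats filaments, stood at 1114, 622, 685 and 824 CPM under IgG and 554, 534, 491 and 336 CPM under anti-Dll4. IgG replicate 1 was the highest, and the groups did not overlap with or without it (log2 fold change -0.76, SE 0.17, edgeR adjusted p = 0.148; -0.57 and 0.275 without it). Tpm2 showed the reverse place of that library: 22.6, 45.7, 34.6 and 57.9 CPM under IgG against 22.5, 18.8, 10.1 and 19.9 CPM under anti-Dll4 (log2 fold change -1.18, SE 0.28; -1.38 without IgG replicate 1, edgeR adjusted p = 0.0527). Myl9, a regulatory myosin light chain, behaved likewise, at 34.3, 181, 119 and 224 CPM against 67.6, 69.1, 14.99 and 69.1 CPM, so that IgG replicate 1 alone made the groups overlap. Its log2 fold change was -1.34 (SE 0.41), and -1.67 without that library (edgeR adjusted p = 0.0703). Myl12a, another light chain, overlapped widely (523 to 906 CPM under anti-Dll4, 662 to 842 CPM under IgG).

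Of the 13 actin genes without overlap, the other two were Arhgap18 and Rhoj. Arhgap18, which encodes a GTPase-activating protein, stood at 141, 84.1, 82.6 and 101 CPM under IgG and 48.9, 76.2, 49.4 and 22.3 CPM under anti-Dll4. Rhoj, a small GTPase gene of endothelium, stood at 75.3, 33.76, 47.0 and 45.2 CPM against 30.3, 33.75, 26.4 and 13.99 CPM. Both were free of overlap, Rhoj by a margin under 1 CPM, with log2 fold changes of -1.04 (SE 0.24, edgeR adjusted p = 0.156) and -0.94 (SE 0.26, edgeR adjusted p = 0.222), which were -0.85 and -0.67 without IgG replicate 1.

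The 13 actin genes without overlap differed in where IgG replicate 1 stood among the IgG libraries. In 8 of them (Abi1, Actb, Arhgap18, Cald1, Cap1, Cnn2, Rhoj and Tpm4) it was the highest of the 4, and in 4 (Capzb, Gsn, Tagln2 and Tpm2) the lowest. Among all 349 lower genes without overlap it was the highest in 194 (55.6%) and the lowest in 49 (14.04%). Of the 13, 12 had a higher mean in Kit- CD41+ CD45- than in Kit+ CD45+ cells under IgG, as did 83 of the 166 tested actin genes (50%) and 47.3% of all tested genes. IgG replicate 1 had the highest endothelial and the lowest platelet sum of the 8 libraries. Its summed actin lists, at 28445 CPM, lay inside the range of the other IgG libraries. With the hemoglobin share as covariate the log2 fold changes of Gsn, Tpm2 and Capzb were further from 0. Those of the rest of the 13 were nearer to 0, such as Tpm4 at -0.46, Rhoj at -0.55 and Cnn2 at -0.64, and 0 genes passed in that fit. The part of the endothelial and platelet transcripts in the actin values was not tested. Immediate early and heat shock genes respond to handling and dissociation of tissue. Of 27 tested, 21 had a lower and 6 a higher mean under anti-Dll4 (median -0.28), where 8334 of all 15618 tested genes were lower. Without IgG replicate 1, 16 of the 27 were lower and 11 higher (median -0.09). The only member without overlap, the heat shock gene Hsp90aa1, was higher, at 358 to 472 CPM under IgG and 510 to 553 CPM under anti-Dll4. The part of these 27 genes in the actin values was not tested either.

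**Figure D3:**
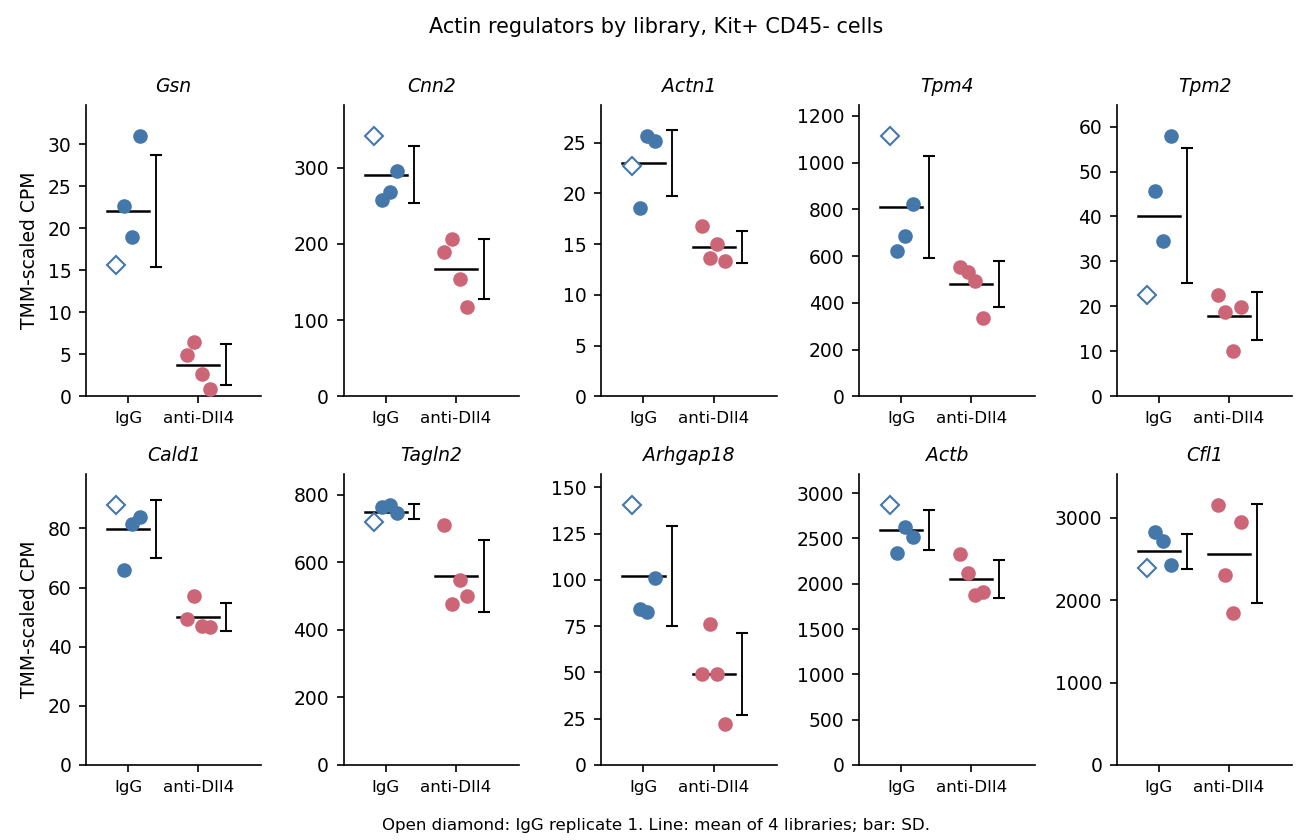
TMM-scaled CPM of 10 actin genes in the 4 IgG (blue) and 4 anti-Dll4 (red) libraries, with mean (line) and SD (bar) and with IgG replicate 1 as an open diamond. Gsn runs from 15.6 to 31.0 CPM under IgG and from 0.875 to 6.42 CPM under anti-Dll4, whereas Cfl1 overlaps between the groups.

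Metabolic genes were on balance slightly higher. Of 309 tested in 10 lists, 203 had a higher and 106 a lower mean under anti-Dll4, the median was 0.11 (0.10 without IgG replicate 1), and no member passed the edgeR threshold. At an unadjusted p below 0.05, 16 were lower (5.18%, against 7.67% of all tested genes) and 25 higher (8.09%, against 3.43%). DESeq2 called 2, Slc25a20 and Eno3, both lower, where it called 0.726% of all genes lower. Groups did not overlap in 5 lower and 1 higher member, where 2.23% and 0.916% of all tested genes did not. These 6, singled out after their values were seen, were Idh2, Slc25a20, Cd36, Slc7a11 and Vldlr (lower) and Atic (higher).

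For glycolysis, 18 of 26 tested genes had a lower mean, with a median of -0.09. Eno3, the muscle-type enolase, stood at 38.4, 24.2, 32.6 and 12.1 CPM under IgG and 15.4, 16.8, 6.70 and 7.00 CPM under anti-Dll4, with IgG replicate 4 inside the anti-Dll4 range (log2 fold change -1.22, SE 0.33, edgeR adjusted p = 0.212). Ldhb and Pfkfb3 had log2 fold changes of -0.59 (SE 0.28) and -0.56 (SE 0.27), and in both the lowest value was in anti-Dll4 replicate 4. Ldha, the other lactate dehydrogenase subunit, spanned 1495 to 1728 CPM under IgG and 1242 to 1674 CPM under anti-Dll4. Its log2 fold change of -0.11 turned to 0.03 with the hemoglobin share as covariate.

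Nucleotide synthesis and the pentose phosphate pathway had 24 of 40 members higher (median 0.06). Upp1, which splits uridine, stood at 115, 61.4, 86.9 and 54.1 CPM under IgG and 55.6, 47.2, 34.5 and 28.4 CPM under anti-Dll4, with a small overlap (log2 fold change -0.93, SE 0.26, edgeR adjusted p = 0.23). Atic, which completes inosine monophosphate, stood at 55.9, 87.08, 85.1 and 67.3 CPM against 101, 95.8, 87.16 and 117 CPM. The groups met without overlap, by less than 1 CPM (log2 fold change 0.44, SE 0.17, edgeR adjusted p = 0.39). Rpia, at 1.38 to 5.16 CPM under IgG and 3.00 to 14.4 CPM under anti-Dll4, and Paics, with a log2 fold change of 0.01 (SE 0.11), overlapped.

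In the TCA cycle list 21 of 31 were higher, with a median of 0.09. Both NADP-dependent isocitrate dehydrogenases lay on the other side: Idh2, the mitochondrial one, stood at 405, 277, 268 and 299 CPM under IgG and 243, 247, 246 and 145 CPM under anti-Dll4. These groups did not overlap, and IgG replicate 1 and anti-Dll4 replicate 4 were at the ends (log2 fold change -0.50, SE 0.15; -0.35 without IgG replicate 1). Idh1, the cytosolic form, had a log2 fold change of -0.54 (SE 0.21) with overlapping groups. Mpc2, a subunit of the mitochondrial pyruvate carrier, and Mdh2 had log2 fold changes of 0.51 (SE 0.26) and 0.12 (SE 0.10), and both overlapped.

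The respiratory chain had 37 of 39 members higher, with a median of 0.27, but no member without overlap. Summed, the IgG libraries held 17461 to 23053 CPM and the anti-Dll4 libraries 19567 to 28641 CPM. The mitochondrially encoded mt-Co1 stood at 478, 1032, 989 and 859 CPM under IgG and 1280, 980, 819 and 1577 CPM under anti-Dll4. Only IgG replicate 1 was far below the rest, and the log2 fold change was 0.47 (SE 0.21), or 0.27 without that library. mt-Nd5 and Uqcrq had 0.39 (SE 0.16) and 0.52 (SE 0.23), and Atp5b, a subunit of ATP synthase, 0.11 (SE 0.12). With the hemoglobin share as covariate the list median was 0.07.

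Heme synthesis, the pathway that supplies hemoglobin, had 14 of 15 tested members higher (median 0.45; 0.30 without IgG replicate 1 and 0.16 with the hemoglobin share as covariate). Urod stood at 384, 840, 616 and 645 CPM under IgG and 678, 1116, 558 and 1259 CPM under anti-Dll4, with overlap (log2 fold change 0.54, SE 0.22). Alad and Abcb10 had 0.58 (SE 0.24) and 0.68 (SE 0.28), and Alas2, the erythroid rate-limiting enzyme, 0.41 (SE 0.33). The 23 erythroid marker genes were all higher, with a median of 0.66, which was 0.05 with the covariate. How far erythroid transcripts account for the heme values was not tested beyond that fit.

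Fatty acid genes were balanced, with 22 of 41 lower and a median of -0.08. Slc25a20, which carries acylcarnitines into mitochondria, stood at 39.7, 32.8, 24.2 and 27.7 CPM under IgG and 19.7, 20.9, 19.7 and 14.6 CPM under anti-Dll4, without overlap (log2 fold change -0.73, SE 0.16, edgeR adjusted p = 0.148). Cd36, a fatty acid translocase that platelets and endothelium also carry, stood at 11.8, 8.07, 7.73 and 8.43 CPM against 4.51, 2.02, 1.00 and 5.68 CPM (log2 fold change -1.52, SE 0.74, edgeR adjusted p = 0.453). Both genes were lower in all 4 anti-Dll4 libraries than in any IgG library, Cd36 at low counts. Hadh and Etfa, which act in mitochondrial oxidation, had log2 fold changes of -0.33 (SE 0.14) and 0.20 (SE 0.14).

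Cholesterol synthesis was centred near 0 (10 of 23 lower, median 0.01). At an unadjusted p below 0.05, 4 members were lower (17.4%, against 7.67% of all tested genes). Hmgcs1, which makes HMG-CoA, stood at 149, 73.7, 96.6 and 117 CPM under IgG and 81.2, 65.0, 70.6 and 66.9 CPM under anti-Dll4. IgG replicate 2 lay inside the anti-Dll4 range, and the log2 fold change of -0.62 (SE 0.18) was -0.43 without IgG replicate 1. Mvd and Cyp51 had -0.58 (SE 0.22) and -0.41 (SE 0.17). Msmo1, an enzyme late in the pathway, had 0.08 (SE 0.20) and turned to -0.01 without IgG replicate 1.

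Serine and one-carbon genes had a median of 0.03, with 15 of 24 higher. Psph, the last enzyme of serine synthesis, stood at 34.6, 94.7, 73.2 and 58.3 CPM under IgG and 91.0, 85.4, 82.5 and 118 CPM under anti-Dll4, where IgG replicate 2 crossed into the upper group. Shmt2, Mthfd2l and Psat1 had log2 fold changes of 0.38 (SE 0.20), -0.31 (SE 0.20) and 0.04 (SE 0.12). For amino acid genes tied to the stress factor ATF4, 25 of 31 were higher with a median of 0.18, which was 0.23 without IgG replicate 1. Nars, the asparaginyl-tRNA synthetase, stood at 586, 850, 694 and 738 CPM against 798, 1193, 773 and 1042 CPM (log2 fold change 0.41, SE 0.14, edgeR adjusted p = 0.318). The groups overlapped there, as they did for asparagine synthetase Asns (0.41, SE 0.17) and for the transcription factor gene Cebpg (0.35, SE 0.15). The same list held 2 members (6.45%) that were lower without overlap, where 2.23% of all tested genes were. Slc7a11, a cystine importer, stood at 2.24 to 3.69 CPM under IgG and 0.41 to 1.31 CPM under anti-Dll4 (edgeR adjusted p = 0.404). Vldlr, a lipoprotein receptor, stood at 13.4 to 21.5 and 5.03 to 12.2 CPM (edgeR adjusted p = 0.412). Both were singled out after their values were seen.

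Glutathione and redox genes had 27 of 39 members higher and a median of 0.19 (0.05 with the covariate). Gclm, the modifier subunit of the enzyme that starts glutathione synthesis, stood at 177, 394, 281 and 297 CPM under IgG and 350, 498, 337 and 515 CPM under anti-Dll4 (log2 fold change 0.56, SE 0.18, edgeR adjusted p = 0.294). The IgG range reached into the anti-Dll4 range through replicate 2. Sod2 and Txn2, mitochondrial redox enzymes, had 0.48 (SE 0.19) and 0.41 (SE 0.16). Gpx1, which red cells hold in quantity, spanned 3055 to 8185 CPM under IgG and 4116 to 13925 CPM under anti-Dll4, and its log2 fold change of 0.61 (SE 0.30) was 0.05 with the covariate.

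**Figure D4:**
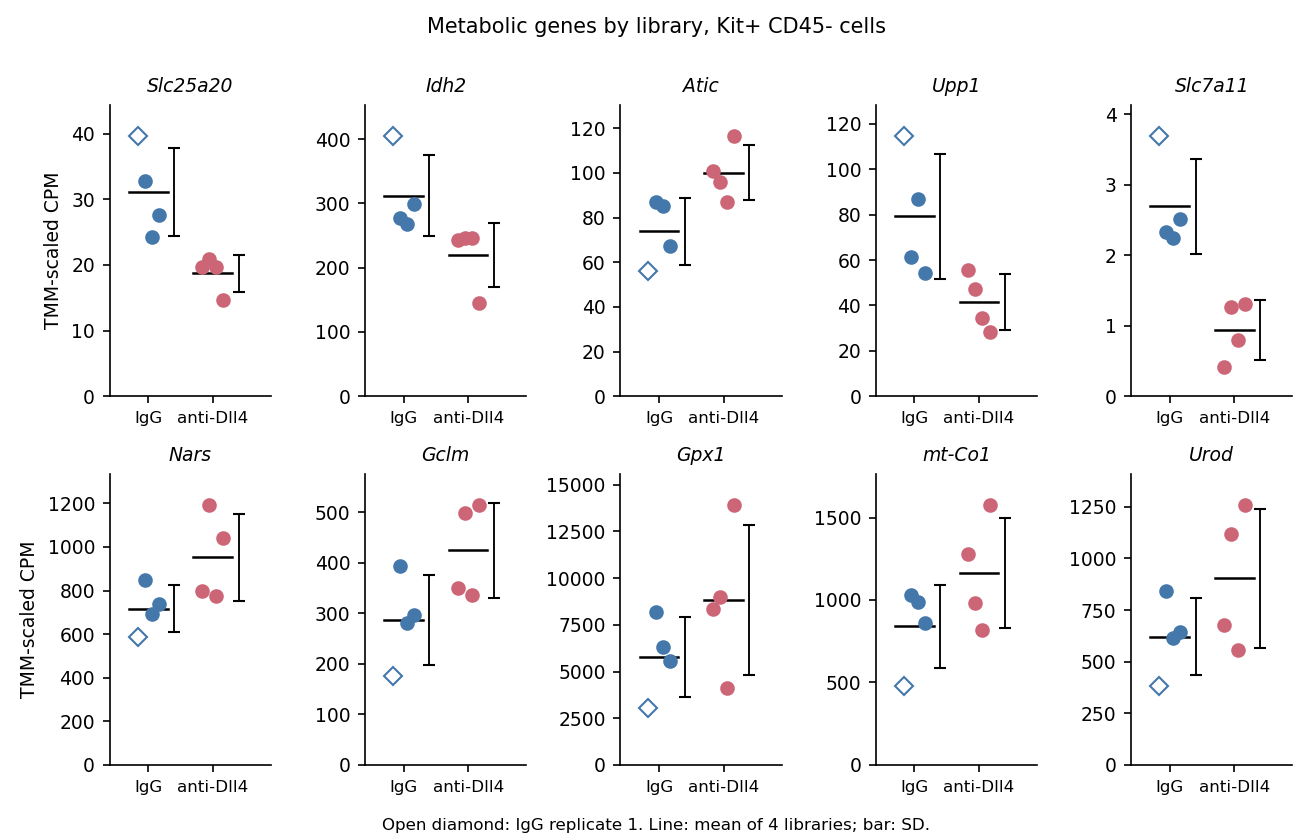
TMM-scaled CPM of 10 metabolic genes in the 4 IgG (blue) and 4 anti-Dll4 (red) libraries, with mean (line), SD (bar) and IgG replicate 1 as an open diamond. Slc25a20, Idh2 and Slc7a11 lie lower and Atic higher without overlap; in mt-Co1, Gpx1 and Urod the lowest library is IgG replicate 1, at 478, 3055 and 384 CPM.

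The 12 higher genes with the smallest p were Sepsecs, Rgcc, Etfbkmt, Mki67, Hspa4l, Ttc14, Cand2, E2f5, Mcm9, Cep83, Dusp11 and Dhrs13, with edgeR adjusted p between 0.193 and 0.276. Sepsecs, which completes selenocysteine on its tRNA, stood at 3.69, 7.24, 5.49 and 5.66 CPM under IgG and 12.8, 9.07, 12.6 and 11.2 CPM under anti-Dll4, without overlap (log2 fold change 1.05, SE 0.28; DESeq2 adjusted p = 0.0328). Mki67, a marker of cycling cells, stood at 108, 143, 133 and 148.8 CPM against 148.4, 207, 170 and 300 CPM, where only IgG replicate 4 reached the lowest anti-Dll4 value. E2f5, a transcription factor of the cell cycle family E2F, was tight in both groups, at 60.9, 74.0, 71.2 and 61.3 CPM against 87.4, 81.2, 88.9 and 87.5 CPM (log2 fold change 0.37, SE 0.11, edgeR adjusted p = 0.26). Rgcc, a regulator of the cell cycle, had 1.07 (SE 0.30), or 0.85 without IgG replicate 1, and its IgG replicate 2 overlapped with anti-Dll4 replicate 3. Etfbkmt, the methyltransferase of a mitochondrial electron carrier, did not overlap (12.5 to 41.4 and 43.5 to 80.9 CPM). Ttc14, Hspa4l, Cep83 and Dhrs13 did not overlap either, while Cand2, Mcm9 and Dusp11 did.

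Genes that do not code for protein made up 2452 of the tested genes, and 0 of them passed the edgeR threshold. At an unadjusted p below 0.05, 102 were lower (4.16%, against 7.67% of all tested genes) and 95 higher (3.87%, against 3.43%). DESeq2 called 5 lower and 1 higher, where it called 0.726% of all genes lower and 0.0287% higher. Their median log2 fold change was 0.04, against -0.04 for the 13166 protein-coding genes. Groups did not overlap in 37 lower (1.51%) and 41 higher (1.67%) non-coding genes. Among protein-coding genes 312 were lower (2.37%) and 102 higher (0.775%) without overlap, and among all tested genes 2.23% and 0.916%. The long intergenic class (482 genes) had a median of -0.04, the antisense class (696) -0.02 and the pseudogenes (418) 0.12. Whether the counting used strand is not given in the sources used here, so reads of an antisense gene and of the gene it overlaps cannot be told apart.

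Small nucleolar RNA (snoRNA) host genes are spliced transcripts whose introns release the guides of ribosomal RNA modification. Of 19 listed, 15 were tested: 14 were higher and 1 lower, with a median of 0.45, or 0.35 without IgG replicate 1 and 0.23 with the hemoglobin share as covariate, and in none were the groups apart. Summed, they held 775, 1067, 1040 and 899 CPM under IgG and 1383, 1012, 866 and 1770 CPM under anti-Dll4, so replicates 1 and 4 of the treated group stood above and the other 2 inside the IgG range. Snhg3 (chr4:132348014-132353686, minus strand) stood at 25.7, 42.0, 36.9 and 27.3 CPM under IgG and 58.2, 52.5, 31.2 and 80.2 CPM under anti-Dll4 (log2 fold change 0.75, SE 0.26, edgeR adjusted p = 0.338). Snhg4 stood at 19.4, 32.7, 21.4 and 17.4 CPM against 39.1, 35.1, 30.1 and 34.3 CPM, and IgG replicate 2 alone overlapped (log2 fold change 0.61, SE 0.25). Zfas1 and Gas5 both had a log2 fold change of 0.45, with SE 0.20 and 0.21. In the other populations the list median was 0.07 in Kit- CD41+ CD45- and 0.23 in Kit+ CD45+ cells.

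Imprinted non-coding genes, expressed from 1 parental allele, had a median of -0.12 over 11 tested. Rian and Meg3, neighbours in 1 imprinted cluster, had log2 fold changes of -0.67 (SE 0.33) and -0.54 (SE 0.29), which were -0.43 and -0.34 without IgG replicate 1. H19 was level in 7 libraries (281 to 335 CPM) and stood at 716 CPM in anti-Dll4 replicate 4. Its log2 fold change of 0.35 (SE 0.27) turned to -0.09 without that library. Nuclear and regulatory non-coding genes had a median of 0.07 over 22 tested, and -0.05 without IgG replicate 1. Lockd and Dleu2 had 0.68 (SE 0.32) and 0.56 (SE 0.32), with the highest value in anti-Dll4 replicate 4 and the lowest in IgG replicate 1, and Jpx, an activator of X inactivation, 0.58 (SE 0.35). Malat1, retained in the nucleus, spanned 2679 to 5922 CPM under IgG and 3104 to 6444 CPM under anti-Dll4.

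The non-coding genes with the smallest p were mostly predicted models or neighbours of other genes. On the lower side these were 2610307P16Rik, Gm13431, Gm28989, Gm26586 and Gm13842, with edgeR adjusted p of 0.148 to 0.186. 2610307P16Rik (chr13:28460034-28885620, minus strand) stood at 17.7, 6.15, 14.01 and 11.3 CPM under IgG and 5.87, 3.65, 5.00 and 2.84 CPM under anti-Dll4, a narrow gap between the groups (log2 fold change -1.49, SE 0.33). Gm13431 (chr2:36216777-36222934, plus strand) stood at 4.33, 8.75, 6.73 and 8.31 CPM against 1.78, 2.02, 2.60 and 4.81 CPM, with IgG replicate 1 in the overlap (log2 fold change -1.37, SE 0.30). Gm26586 lies antisense within Tpm4 and followed it, at 129, 77.5, 90.8 and 102 CPM against 71.3, 73.1, 61.1 and 41.3 CPM. On the higher side the 5 were Gm45890, Gm26899, Gm20324, 4933431K14Rik and Gm17300, all on the strand opposite to another gene, with adjusted p of 0.186 to 0.276. Gm17300 lies opposite Snhg3 and, at 55.0, 105, 80.6 and 64.6 CPM against 140, 124, 78.2 and 200.5 CPM, showed the same high and low anti-Dll4 libraries. 4933431K14Rik, opposite Ibtk, was the only one of the 5 without overlap (0.738 to 4.78 and 5.87 to 8.75 CPM).

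**Figure D5:**
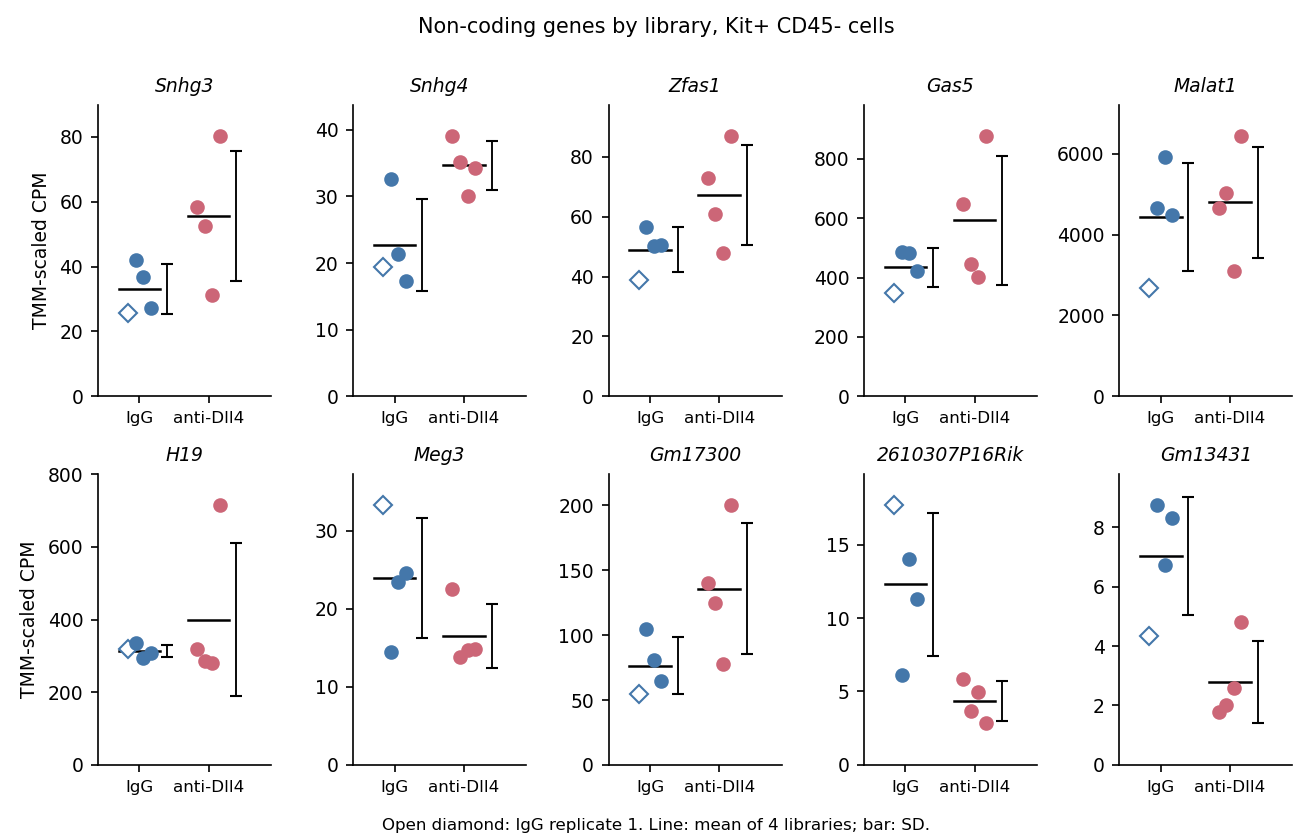
TMM-scaled CPM of 10 non-coding genes in the 4 IgG (blue) and 4 anti-Dll4 (red) libraries, with mean (line), SD (bar) and IgG replicate 1 as an open diamond. Snhg3, Zfas1, Gas5 and Gm17300 are highest in anti-Dll4 replicate 4, as is H19 at 716 CPM, and 2610307P16Rik is lower without overlap.

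Of the Notch pathway itself, Hes1 (chr16:30064384-30067796, plus strand) stood at 79.9, 45.4, 83.8 and 45.9 CPM under IgG and at 32.0, 30.7, 26.2 and 27.8 CPM under anti-Dll4. All 4 treated libraries lay below the IgG libraries and close together (log2 fold change -1.13, SE 0.30, edgeR adjusted p = 0.195; DESeq2 adjusted p = 0.0464). The log2 fold change of Hes1 was -1.31 in Kit- CD41+ CD45- and -0.73 in Kit+ CD45+ cells, and the difference between Kit+ CD45- cells and the mean of the other 2 was -0.11 (SE 0.37). Dll4, the targeted ligand, stood at 22.9, 7.93, 9.75 and 7.80 CPM under IgG and 11.9, 3.02, 10.1 and 0.437 CPM under anti-Dll4, with overlap (log2 fold change -0.90, SE 0.63; -0.39 without IgG replicate 1). An antibody acts on the protein, so the transcript is no check of the labels. Over 19 tested Notch targets, 14 were lower and 5 higher (median -0.74; -0.57 without IgG replicate 1 and -0.35 with the hemoglobin share as covariate). Hes1 and Efnb2 were lower without overlap, where 2.23% of all tested genes were. Efnb2, the arterial ephrin B2 gene, stood at 29.5, 12.03, 13.8 and 12.8 CPM against 11.6, 3.65, 8.40 and 5.47 CPM, high in IgG replicate 1 (log2 fold change -1.22, SE 0.34; -0.82 without that library).

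Platelet genes depended on IgG replicate 1. Of 23 tested, 22 were lower (median -0.93, or -1.08 with the hemoglobin share as covariate). Clec1b alone was lower without overlap, where 2.23% of all tested genes were. When IgG replicate 1 was left out the median was -1.20, and 15 were lower without overlap, where 3.69% of all tested genes were. Gp6 shows the pattern: 2.77, 26.4, 13.5 and 25.3 CPM under IgG and 2.87, 4.66, 1.70 and 2.40 CPM under anti-Dll4. IgG replicate 1 sat inside the treated range, and the log2 fold change was -2.52 (SE 0.51, edgeR adjusted p = 0.12), or -2.89 without that library (edgeR adjusted p = 0.00303). Capn3, a calpain protease, Smim14 and Smim3, small membrane proteins, had the same arrangement, with IgG replicate 1 at 3.97, 50.5 and 46.1 CPM and the other IgG libraries at 22.6 to 40.9, 114 to 120.5 and 128 to 175 CPM. Their anti-Dll4 ranges were 4.70 to 16.4, 33.6 to 57.7 and 69.6 to 109 CPM, and their edgeR adjusted p without that library was 0.0145 each. The endothelial list held 28 of 28 lower with a median of -0.79, or -0.47 without IgG replicate 1 and -0.39 with the hemoglobin share as covariate. With and without IgG replicate 1, 6 of the 28 were lower without overlap, where 2.23% and 3.69% of all tested genes were.

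Only 2 genes, both lower (0.0128% of tested genes), had an anti-Dll4 effect in Kit+ CD45- cells that differed from the mean effect in the other 2 populations: Gp6 (-4.58, SE 0.74, edgeR adjusted p = 0.0211) and 4931440F15Rik (-3.75, SE 0.61, edgeR adjusted p = 0.0211). 4931440F15Rik, annotated as protein-coding at chr11:29822395-29825668 on the minus strand within Eml6, stood at 5.16, 5.60, 6.39 and 6.80 CPM under IgG and 1.91, 0.882, 0.800 and 1.97 CPM under anti-Dll4 (log2 fold change -2.16, SE 0.39, edgeR adjusted p = 0.0562). Its groups were well apart in Kit+ CD45- cells, and the reads of the 2 overlapping genes cannot be fully told apart. In Kit+ CD45+ cells both genes were near 0 under IgG (Gp6 0.0762 CPM and 4931440F15Rik 0.019 CPM on average), so the fitted effect there rests on a few reads. Set against Kit- CD41+ CD45- cells alone, an alternative chosen after seeing the data, 0 genes passed in edgeR, with 442 lower and 154 higher at an unadjusted p below 0.05: Gp6 had a difference of -2.51 (edgeR adjusted p = 1) and 4931440F15Rik of -2.22 (edgeR adjusted p = 0.663). The test treats all 24 libraries as independent, although libraries of the 3 populations with the same antibody and replicate number may come from 1 preparation, which the labels do not state. With a replicate block for each of these 8 antibody and replicate combinations, also chosen after seeing the data, 0 genes passed in edgeR, with 660 lower and 272 higher at an unadjusted p below 0.05, and Gp6 (-4.41, SE 0.76) and 4931440F15Rik (-3.75, SE 0.69) both had an adjusted p of 0.159.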

How the data were processed

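The deposited table holds raw read counts per gene for 29716 genes, per the labels and the values, and a second deposited table holds log2 values that the authors made as log2(count / size factor + 1), found by recomputing them; only counts were tested, and 1 log2 column of no listed sample was not used here. The submitters' processing notes name build mm10 and the tools STAR, HTSeq, DESeq2, FastQC and CASAVA 1.4, with no roles. Per the labels' protocols, polyA RNA of sorted cells was amplified by long-distance PCR; molecular identifiers are not described, so reads are not independent molecules.

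edgeR 4.0.16 (R 4.3.3) was run with TMM, filterByExpr by group and robust quasi-likelihood F-tests, with 1 coefficient for each of 6 groups over 24 libraries (18 residual degrees of freedom, biological coefficient of variation 0.343), Benjamini-Hochberg adjustment over 15618 genes and a threshold of 0.05. SE is the fold change over the root of F. The script was tested on simulated data. Alternatives were DESeq2 1.42.0, limma 3.58.1 (voom with quality weights), upper-quartile scaling, no filter, only the 8 libraries, a replicate block, the hemoglobin share as covariate (the last 2 over the 8 libraries), globins left out and each library left out. Added after seeing the data were the test against Kit- CD41+ CD45- cells alone and the block over the 3 populations. Measures of whole libraries had an exact permutation test each.

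Members and lists were chosen with earlier results of these data known. Genes were named by rule: up to 12 in each direction with the smallest p and at least 5 CPM in the higher group (5 non-coding, at least 2 CPM), the 3 smallest p and the member of each list with the highest CPM (not per length), and Dll4 and Hes1; exceptions are stated. Gene positions come from the deposited count table (mm10). Promoter windows are from RefSeq, GRCm38.p6. A few named items and 1 list are not reported here.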

Additional observations from a re-analysis of the deposited data

Results flagged for a closer look

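Among groups of 4 libraries, 1 value stood far from the other 3 in 14 of 234 gene levels examined (117 named genes in each of the 2 groups), or 5.98%. How often chance gives such outlying values among genes named by these rules was not tested. In IgG replicate 1 these were Cdh5 (46.9 CPM), Dll4 (22.9 CPM) and Efnb2 (29.5 CPM), all above the other IgG libraries, and Smim14 (50.5 CPM) and Cebpg (50.1 CPM), both below them. In anti-Dll4 replicate 4 they were Lum (299 CPM) and H19 (716 CPM), above, and Ldhb (20.3 CPM), Pfkfb3 (6.56 CPM) and Idh2 (145 CPM), below. In anti-Dll4 replicate 1 they were Actc1 (23.1 CPM) and Meg3 (22.5 CPM), above, and Jpx (3.14 CPM), below, and in anti-Dll4 replicate 3 Myl9 (14.99 CPM), below. Jpx lies on the X chromosome, and anti-Dll4 replicate 1 was the library with male cells. The part of sex in its Jpx value was not tested. The effect of anti-Dll4 on Gp6 (difference -4.58) and 4931440F15Rik (difference -3.75) differed between Kit+ CD45- cells and the mean of the other 2 populations by a test of the difference in edgeR. Both genes were near 0 in Kit+ CD45+ cells under IgG (0.0762 and 0.019 CPM on average), and neither passed against Kit- CD41+ CD45- cells alone (edgeR adjusted p = 1 and 0.663) or with a replicate block over the 3 populations (edgeR adjusted p = 0.159 for both).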

How the results depend on the processing

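The count of genes that differed between anti-Dll4 and IgG was 0 in the fits with voom, upper-quartile scaling, no filter, only the 8 libraries, globins left out, the hemoglobin covariate and the replicate block; it was 79 with DESeq2 and 0 to 23 when each library was left out. The count for the difference between populations (2) was 16 with DESeq2, 1 with voom, 1 with no filter, 0 against Kit- CD41+ CD45- cells alone, 0 with a replicate block over the 3 populations and 0 to 6 with 1 library left out. The difference in hemoglobin share (8.47 points, also with the replicate block) was 3.83 to 12.9 points with 1 library left out, largest without anti-Dll4 replicate 3 and smallest without anti-Dll4 replicate 4. No pairing of the 2 antibody groups by replicate number was seen: same-numbered libraries correlated between -0.063 and 0.014, and other pairs between -0.228 and 0.199. These few values cannot show whether same-numbered libraries shared a litter or day, which the labels do not give. Between populations, libraries with the same antibody and number correlated between -0.064 and 0.197 (median 0.052), and those with other numbers between -0.232 and 0.167 (median -0.022).

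Of 1869 values of named genes under alternatives, 33 changed direction, all of genes with small fold changes except Lum; the cause was not tested. Cfl1 turned to 0.009 with DESeq2 and with globins left out, 0.00 without the filter, 0.007 with only the 8 libraries and 0.034 with upper-quartile scaling, and Myl12a to 0.017 with the last. With the hemoglobin covariate Ldha became 0.026, Msmo1 -0.108, Malat1 -0.217, Kit 0.096 and Lum -0.838. Lum was -0.625 with voom and -0.246 with the replicate block. With 1 library left out the values ran from -0.123 to 0.111 for Cfl1, -0.158 to 0.089 for Myl12a, -0.044 to 0.09 for Paics, -0.037 to 0.212 for Msmo1, -0.062 to 0.129 for Psat1, -0.085 to 0.488 for H19, -0.065 to 0.296 for Malat1, -0.4 to 0.008 for Kit and -0.914 to 3.157 for Lum, whose direction rests on anti-Dll4 replicate 4, as does that of H19.

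Depth limits genes with few reads, such as Rpia, Slc7a11, Cd36 and Jpx; the size of difference detectable at this depth was not tested.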
